A study of Mus musculus with 59 samples.

Results

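The genes of the PPAR, RXR and LXR receptors in mouse liver were examined for binding of BCL6, PPARα and PPARδ. The 8 genes were *Ppara*, *Ppard*, *Pparg*, *Rxra*, *Rxrb*, *Rxrg*, *Nr1h2* (LXRβ) and *Nr1h3* (LXRα). A ChIP-seq peak belonged to one of them if its center lay within the gene, or if the nearest transcription start site (TSS) of a protein-coding RefSeq gene, at most 100 kb away, was that of a receptor gene. By this rule 181 of the 102931 peaks in 7 lists were found at the receptor genes. After peaks of different lists with centers less than 200 bp apart were joined, they formed 64 of 40478 sites. No site farther than 100 kb was nearest to a receptor TSS, and the most distant site outside a gene lay 79996 bp from one. Of the 64 sites, 38 had their center in a receptor gene and 26 lay outside.

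The livers came from male mice. BCL6, PPARα and PPARδ were mapped in C57BL/6 mice that were fed ad libitum or fasted overnight for 16 to 18 hr. A further BCL6 list came from fed Bcl6 fl/fl mice, whose *Bcl6* alleles carry loxP sites but which lack Cre. Ages were not given in the sources used here. Each list combined 3 biological replicates and held positions only. No list gave a depth, a tag count or an error between replicates, so a site could be scored only as called or not called, and a call in one feeding state alone does not measure a difference in occupancy. The lists differed in length: 15642 BCL6 peaks in fed and 9613 in fasted livers, 21410 and 29085 PPARα peaks, 7328 and 2399 PPARδ peaks, and 17454 BCL6 peaks in fed Bcl6 fl/fl livers. Shares are given with 95% Wilson intervals for counting error alone, and neighboring sites of a gene are not replicates.

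PPARs and LXRs are ligand-activated nuclear receptors that bind DNA as heterodimers with an RXR. PPAR-RXR dimers recognize direct repeats of a hexamer spaced by a single base (DR1), and LXR-RXR dimers the same repeats with a longer spacer (DR4). PPARα drives hepatic fatty acid oxidation in fasting, PPARδ controls fatty acid use in many tissues, PPARγ is best known from adipocytes, and the LXRs respond to oxysterols and control cholesterol and lipid synthesis. BCL6 is a zinc finger repressor that recruits corepressors to its own element.

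Some of the sites described further on are shown as sequence windows of 200 bases around the center of the site. They were read from the mm10 reference (GRCm38.p6). Capitals mark matches on either strand to any of 4 motifs: the BCL6 element TTCCTAGAA with at most 1 mismatch, DR1 (AGGTCANAGGTCA) or DR4 (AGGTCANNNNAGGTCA) with at most 2 mismatches, and the forkhead motif TGTTTAC with 0 mismatches. Matches can overlap, and a window in lower case throughout holds none of these letters. The first pair are the 2 sites called in all 7 lists.
Ppara intron 2, 7.0 kb downstream of the TSS, chr15:85742697-85742896, + strand: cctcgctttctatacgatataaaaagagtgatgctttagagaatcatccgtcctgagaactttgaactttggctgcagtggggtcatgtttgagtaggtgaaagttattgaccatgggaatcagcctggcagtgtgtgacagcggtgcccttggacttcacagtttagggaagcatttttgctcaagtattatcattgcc
Rxra, 52.1 kb upstream of the TSS, chr2:27624986-27625185, + strand: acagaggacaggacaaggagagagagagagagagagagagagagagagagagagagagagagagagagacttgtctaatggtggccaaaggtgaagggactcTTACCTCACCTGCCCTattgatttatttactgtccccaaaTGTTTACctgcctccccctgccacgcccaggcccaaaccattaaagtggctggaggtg
The next 4 held the closest matches to the BCL6 element or to DR1 among the receptor sites, an exact BCL6 element at *Nr1h3* and DR1 with 1 mismatch at the others.
Nr1h3 intron 7, chr2:91189128-91189327, + strand: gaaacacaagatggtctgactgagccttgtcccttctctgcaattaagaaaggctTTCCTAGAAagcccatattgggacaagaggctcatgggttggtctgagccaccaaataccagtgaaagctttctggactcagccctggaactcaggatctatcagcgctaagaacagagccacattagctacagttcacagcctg
Ppara intron 4, 51.9 kb downstream of the TSS, chr15:85787557-85787756, + strand: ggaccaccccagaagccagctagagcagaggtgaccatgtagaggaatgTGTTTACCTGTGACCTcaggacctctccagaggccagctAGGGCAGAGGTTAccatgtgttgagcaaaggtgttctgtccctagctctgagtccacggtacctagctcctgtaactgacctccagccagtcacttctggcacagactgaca
Rxra, 37.1 kb upstream of the TSS, chr2:27640028-27640227, + strand: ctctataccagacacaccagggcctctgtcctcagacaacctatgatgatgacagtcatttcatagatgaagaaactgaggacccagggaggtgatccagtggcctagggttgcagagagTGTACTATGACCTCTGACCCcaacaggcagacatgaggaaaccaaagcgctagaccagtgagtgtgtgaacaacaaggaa
Rxrb intron 7, chr17:34036735-34036934, + strand: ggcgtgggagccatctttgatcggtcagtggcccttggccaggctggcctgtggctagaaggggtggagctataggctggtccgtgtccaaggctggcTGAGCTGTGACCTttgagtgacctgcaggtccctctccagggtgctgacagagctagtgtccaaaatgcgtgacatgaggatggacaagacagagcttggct
The last 4 were chosen for their position or calls. They are the *Ppard* site bound by BCL6 in every BCL6 list, the nearer to the internal *Pparg* start of 2 sites there with all 3 factors, and the promoter sites of the LXR genes, where PPARα alone was called and in fasted livers alone.
Ppard intron 2, 46.7 kb downstream of the TSS, chr17:28279308-28279507, + strand: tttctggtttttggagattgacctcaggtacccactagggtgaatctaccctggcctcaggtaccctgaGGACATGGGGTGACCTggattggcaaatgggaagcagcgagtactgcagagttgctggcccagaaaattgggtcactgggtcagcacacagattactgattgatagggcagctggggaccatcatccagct
Pparg, upstream of the internal start, chr6:115421676-115421875, + strand: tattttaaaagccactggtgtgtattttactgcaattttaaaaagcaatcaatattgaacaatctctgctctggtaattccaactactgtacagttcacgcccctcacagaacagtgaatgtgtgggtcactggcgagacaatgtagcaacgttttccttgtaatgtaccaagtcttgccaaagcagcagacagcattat
Nr1h2 promoter, chr7:44553941-44554140, + strand: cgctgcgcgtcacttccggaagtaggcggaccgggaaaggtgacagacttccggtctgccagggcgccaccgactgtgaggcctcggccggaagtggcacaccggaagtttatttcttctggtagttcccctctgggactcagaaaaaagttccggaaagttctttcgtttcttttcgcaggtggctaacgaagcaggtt
Nr1h3 promoter, chr2:91195049-91195248, + strand: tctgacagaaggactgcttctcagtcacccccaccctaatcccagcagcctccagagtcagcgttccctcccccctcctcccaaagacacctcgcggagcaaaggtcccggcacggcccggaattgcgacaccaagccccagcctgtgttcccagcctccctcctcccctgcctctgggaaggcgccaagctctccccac

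Among the receptor genes, *Ppara* and *Rxra* had the most sites, largely through sites outside the gene. *Ppara* had 23 sites and *Rxra* 20, followed by *Ppard* with 8, *Pparg* with 7, *Rxrb* and *Nr1h3* with 2 each, and *Rxrg* and *Nr1h2* with 1 each. Within gene bodies alone, *Ppara* and *Rxra* had 9 sites each, close to the 8 of *Ppard* and the 7 of *Pparg*. Counted by the same rule over all 21774 protein-coding genes, 46 genes had more sites than *Ppara* and 83 had more than *Rxra*. The median gene had 1 site, and 52.6% of genes had any. All 8 receptor genes had at least 1 site. PPARα was the only one of the 3 factors called at all 8 (100%), against 48.2% of all genes. BCL6 was called at 5 of the 8 genes in C57BL/6 livers (62.5%) and PPARδ at 3 (37.5%), against 30.0% and 20.5% of all genes. Of the 41 other nuclear receptor genes compared below, 85.4% had PPARα, 63.4% BCL6 and 53.7% PPARδ. For the 16 coregulator genes these shares were 93.8%, 81.2% and 56.2%.

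Long genes and genes with distant neighbors collect more sites, so counts were also set against the length the rule searched. *Ppara* had 15.5 sites per 100 kb over 148 kb, more than 97.0% of genes, and *Rxra* had 9.31 per 100 kb over 215 kb, more than 91.1%. *Ppard* reached 9.85 per 100 kb, close to *Rxra*, whereas *Pparg* had 3.81 and *Rxrg* 0.829. *Nr1h3*, *Nr1h2* and *Rxrb* are short genes in dense surroundings: the 30.1 sites per 100 kb of *Rxrb* rested on 2 sites in 6.65 kb, and the 10.6 of *Nr1h3* on 2 sites in 18.8 kb.

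**Figure D1:**
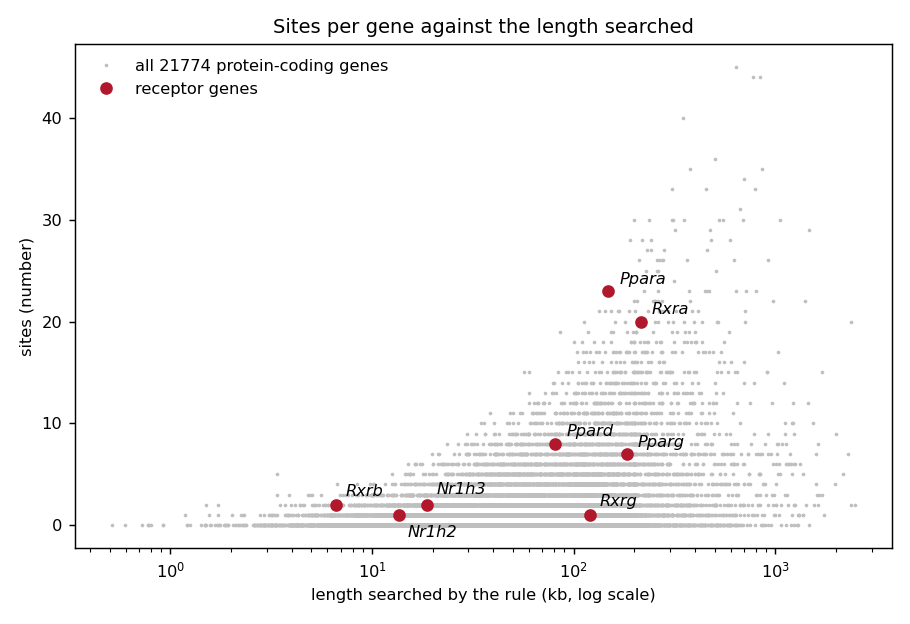
Number of sites per gene (vertical axis) against the length in kb searched by the rule (horizontal axis, log scale) for all protein-coding genes (gray) and the 8 receptor genes (red). Ppara with 23 sites and Rxra with 20 lie near the upper edge for their length, and Rxrg with 1 site lies among genes with few.

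The receptor genes were compared with 41 other nuclear receptor genes and 16 coregulator genes. The other receptors had a median of 3 sites and 2.83 sites per 100 kb, and 37 of the 41 had at least 1 site. *Rora* had the most, with 44 sites, followed by *Thrb* with 30 and *Nr5a2* with 28, while *Nr0b1*, *Nr1h5*, *Nr2e1* and *Rorb* had 0. The coregulators had a median of 7 sites and 2.90 per 100 kb, with 17 sites at *Nrip1* and 16 at *Tbl1xr1*. For the 8 PPAR, RXR and LXR genes the medians were 4.50 sites and 9.58 per 100 kb, so they stood above both lists per length but not above the coregulators by count. These are descriptions of 8 genes, and the spread within them, from 0.829 to 30.1 per 100 kb, was wider than the distance between the medians.

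**Figure D2:**
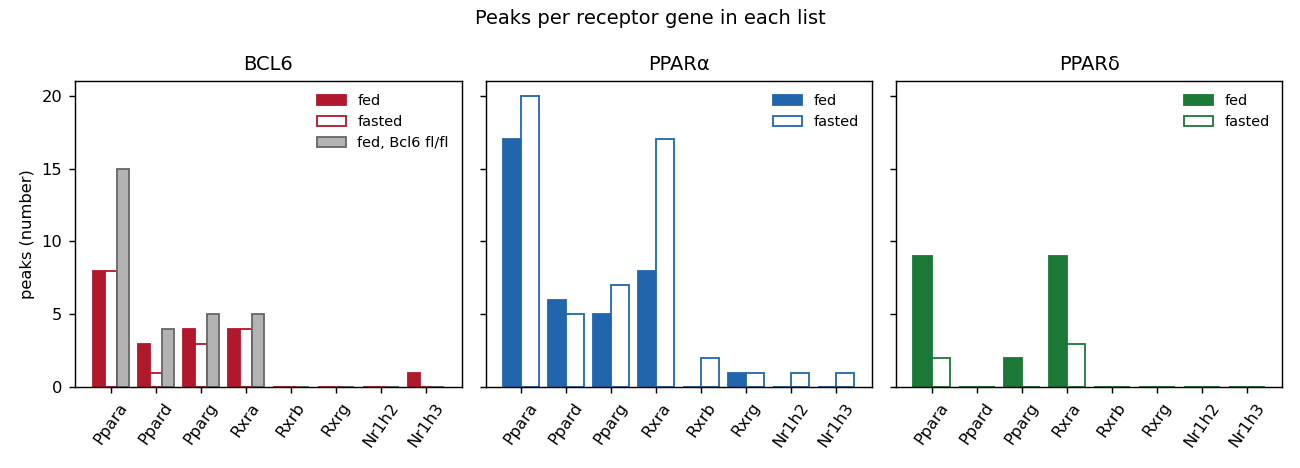
Number of peaks (vertical axis) at each of the 8 receptor genes in fed (filled bars) and fasted (open bars) C57BL/6 livers for BCL6, PPARα and PPARδ, with the fed Bcl6 fl/fl list in gray for BCL6. PPARα peaks at Rxra number 8 in fed and 17 in fasted livers, and PPARδ peaks at Ppara 9 and 2.

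*Ppara* (chr15:85734910-85806851, + strand) encodes the receptor of the fasting response. Its 23 sites spread from 74.9 kb upstream to 51.9 kb downstream of the start of the RefSeq Select transcript. Of these, 14 were upstream and 9 were intronic, with 8 of the 9 in intron 2, and none lay in an exon. PPARα was called at 22 of the 23 sites, BCL6 at 10 and PPARδ at 9. BCL6 had 8 fed and 8 fasted peaks, with 6 sites in both. Of the 10 BCL6 sites, 2 were in the fed list alone (20.0%, 5.67% to 51.0%), against 45.3% of all BCL6 sites. With the Bcl6 fl/fl list for fed BCL6, 7 of 15 were in the fed list alone (46.7%, 24.8% to 69.9%), against 50.2%. PPARα had 17 fed and 20 fasted peaks, with 15 sites in both. PPARδ had 9 fed and 2 fasted peaks, and both fasted peaks fell on sites that were also called in fed livers.

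All 3 factors were called at 6 *Ppara* sites. They lay 60.0 kb and 3.0 kb upstream and 7.0, 35.7, 38.8 and 51.9 kb downstream of the start. The site at 7.0 kb (chr15:85742661-85742938) was the only *Ppara* site in all 7 lists, and its window shown above held none of the 4 motifs. At 3.0 kb upstream (chr15:85732574-85732950) every list but fasted PPARδ had a peak. The site at 51.9 kb (chr15:85787520-85787797) was in 6 lists, with BCL6 called in fed livers and not in fasted ones and PPARδ called in both states. The remaining BCL6 sites with PPARα were 66.0 kb upstream and 36.4 and 41.3 kb downstream. The *Ppara* site without PPARα, at 17.2 kb (chr15:85752795-85753152), had BCL6 in fasted C57BL/6 livers and in fed Bcl6 fl/fl livers.

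PPARα was the only factor at 10 *Ppara* sites when BCL6 was taken from C57BL/6 livers. At 4 of these the fasted PPARα list was the only one of the 7 with a peak, at 74.9, 52.8 and 50.7 kb upstream and 18.8 kb downstream. At 15.3 kb and 15.1 kb upstream, a fed PPARα peak and a fasted PPARα peak with fed PPARδ had centers just beyond the joining distance, and at 400 bp they became 1 site called in both states. No site lay in a promoter, taken as 1000 bp upstream to 100 bp downstream of a TSS, of a curated *Ppara* transcript. The sites at 35.7 and 36.4 kb lay 689 bp upstream and 8 bp downstream of the start of a predicted *Ppara* transcript model, a start without curated evidence. The site 30.0 kb upstream (chr15:85705601-85705854), with PPARα in both states, was within the noncoding gene *Lncppara* and 875 bp from *Mirlet7c-2*, a let-7 precursor gene.

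BCL6 in fed Bcl6 fl/fl livers was called at 15 *Ppara* sites against 8 in fed C57BL/6 livers. All 8 were among the 15. Of the other 7, 2 had BCL6 in fasted C57BL/6 livers, and 5 had no C57BL/6 BCL6 peak in either state, at 32.4, 30.0, 18.6, 12.8 and 3.7 kb upstream. PPARα was called at each of these 5. A C57BL/6 BCL6 peak was thus found at 10 of the 15 (66.7%, 41.7% to 84.8%), against 67.8% of all Bcl6 fl/fl sites. With both kinds of fed list counted, 14 of the 22 PPARα sites at *Ppara* carried a BCL6 call, against 9 of 22 from C57BL/6 livers alone (63.6% and 40.9%). Over all PPARα sites the same step went from 40.9% to 51.5%.

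**Figure D3:**
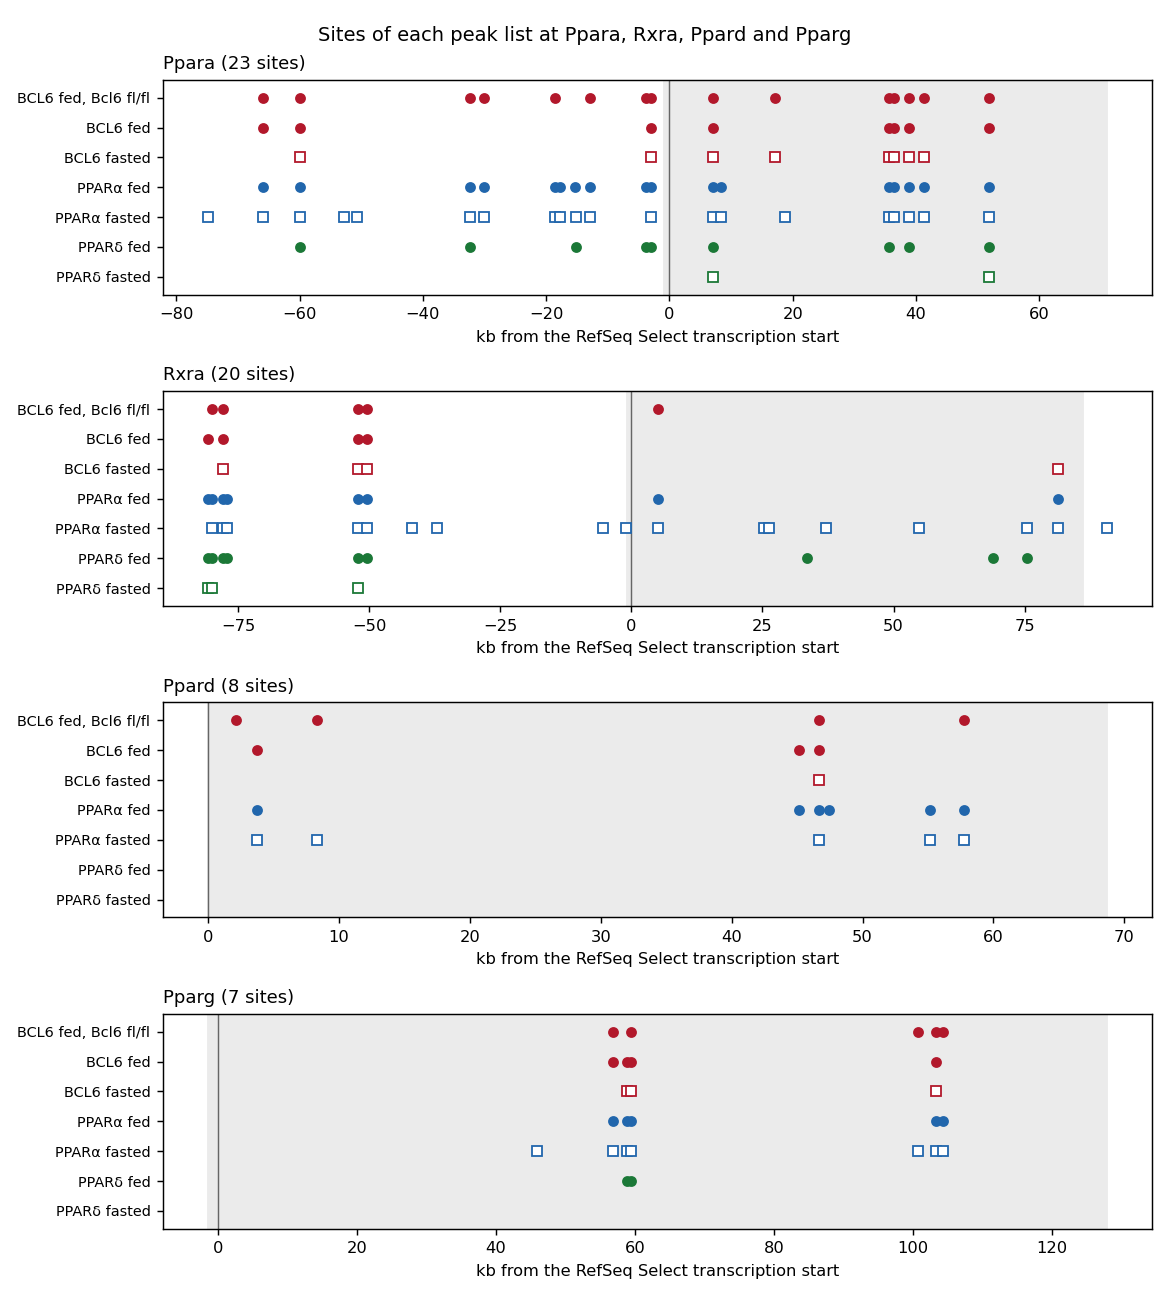
Sites at Ppara, Rxra, Ppard and Pparg by distance in kb from the start of the RefSeq Select transcript (horizontal axis), with a row for each peak list; circles are fed and squares fasted livers, and the gray band is the gene. PPARδ rows are empty at Ppard, and the fasted PPARα row of Rxra has squares within the gene where no other row has a mark.

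*Rxra* (chr2:27676445-27763319, + strand) encodes the main RXR of hepatocytes. Its 20 sites formed groups that differed in the factors called. The 6 sites between 80.8 and 50.4 kb upstream all had PPARα and PPARδ, and 4 of them had BCL6 in C57BL/6 livers. Of these, the site 52.1 kb upstream (chr2:27624841-27625249) was called in all 7 lists. The site 80.8 kb upstream (chr2:27596327-27596568) had PPARα in fed livers only and PPARδ in both states, and the site 80.0 kb upstream had PPARα and PPARδ in both states. From 41.9 kb upstream to 90.8 kb downstream the other 14 sites mostly had fewer factors. Of these, 9 were in the fasted PPARα list only and 2, at 33.5 and 69.0 kb, in the fed PPARδ list only. Of 10 *Rxra* PPARα sites called in fasted livers only, 9 had no other call (90.0%, 59.6% to 98.2%), against 74.8% over all such sites. At 75.5 kb fasted PPARα and fed PPARδ were called at the same site.

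In this second stretch of *Rxra*, BCL6 appeared at 2 sites. One was 5.1 kb into intron 1, with PPARα in both states and BCL6 in Bcl6 fl/fl livers only, and the other was at 81.4 kb in intron 9 (chr2:27758448-27758731), with PPARα in both states and BCL6 in fasted livers only. The fasted PPARα peak nearest to the 5′ end of the gene lay 250 bp upstream of a predicted start and 1.0 kb upstream of the RefSeq Select start. The PPARδ site at 33.5 kb lay 82 bp downstream of a curated alternative *Rxra* start, and it was called in no other list. Over the whole gene PPARα had 8 fed and 17 fasted peaks, and 10 of 18 PPARα sites were called in fasted livers only (55.6%, 33.7% to 75.4%), an interval that holds the 35.8% of all PPARα sites. PPARδ had 9 fed and 3 fasted peaks, all 3 at sites that were also called in fed livers.

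*Ppard* (chr17:28232754-28301469, + strand) encodes the receptor whose own binding was mapped here, and no PPARδ peak of either state lay at its gene. All 8 *Ppard* sites were intronic, between 2.1 and 57.8 kb from the start. PPARα was called at 7 of them, with 6 fed and 5 fasted peaks. BCL6 had 3 fed peaks and 1 fasted peak in C57BL/6 livers, each at a PPARα site. The site at 46.7 kb (chr17:28279268-28279540), shown above with a DR4 match, was the only one with BCL6 and PPARα in both states. The fed Bcl6 fl/fl list had 4 peaks at *Ppard*, and 1 of them coincided with a C57BL/6 BCL6 site. This was 25.0% (4.56% to 69.9%), an interval that holds the 67.8% of all Bcl6 fl/fl sites. The 5 sites from 45.1 to 57.8 kb lay inside *Ppard* but nearer to the start of the neighboring gene *Fance*, so they count here through the gene body alone.

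*Pparg* (chr6:115360879-115490404, + strand) is transcribed from several starts, of which the internal one used by the PPARγ2 form is known for its activity in fat. The closest of its 7 sites to the RefSeq Select start was 45.9 kb away, with PPARα in fasted livers only. A group of 3 lay just upstream of the internal start, at distances of 2906, 916 and 291 bp. The sites at 916 bp (chr6:115421022-115421278) and 291 bp (chr6:115421657-115421910) had BCL6 and PPARα in both states and PPARδ in fed livers. These were the 2 *Pparg* sites with PPARδ. A second group of 3 sites lay 100.8 to 104.4 kb from the RefSeq Select start, and the first of them was centered in exon 6, the single exonic site among the 64. All 7 *Pparg* sites had PPARα in fasted livers and 5 also in fed livers, and BCL6 was called at 4.

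The other RXR and the LXR genes had few sites, and these were mostly PPARα in fasted livers. *Rxrb* (chr17:34031812-34038403, + strand), a broadly expressed RXR, had 2 sites in the fasted PPARα list and in no other. The first, in intron 1, lay 798 bp downstream of the *Rxrb* start and 920 bp upstream of the start of *Slc39a7*, the neighboring zinc transporter gene. The second, in intron 7, held DR1 with 1 mismatch and was nearer to the start of *Col11a2*. *Nr1h2* (chr7:44549616-44553968, − strand) had 1 site, again in the fasted PPARα list alone. It lay 72 bp upstream of a predicted start and 75 bp upstream of the RefSeq Select start. *Nr1h3* (chr2:91184061-91202829, − strand), the LXR typical of liver, had a fasted PPARα site 25 bp upstream of a predicted start and 32 bp upstream of the RefSeq Select start. Its second site, in intron 7 (chr2:91189119-91189335), was nearer to the start of *Madd*. It was called for BCL6 in fed C57BL/6 livers alone and held the exact BCL6 element. *Rxrg* (chr1:167598362-167639623, + strand), the RXR of muscle and brain, had 1 site with PPARα in both states, 72 bp upstream of a curated internal start. No PPARδ peak was found at these 4 genes, and BCL6 at *Nr1h3* only.

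By feeding state, the intervals at the receptor sites held the shares of the lists as a whole. Of 23 BCL6 sites in C57BL/6 livers, 7 were in the fed list alone (30.4%, 15.6% to 50.9%), 13 were in both lists and 3 in the fasted list alone (13.0%, 4.54% to 32.1%). Over all BCL6 sites 45.3% were in the fed list alone and 11.0% in the fasted list alone. With the Bcl6 fl/fl list in place of fed C57BL/6, 15 of 31 receptor sites were in the fed list alone (48.4%, 32.0% to 65.2%), against 50.2% over all. Of 59 PPARα sites, 22 were in the fasted list alone (37.3%, 26.1% to 50.0%) and 5 in the fed list alone (8.47%, 3.67% to 18.4%), against 35.8% and 12.8% of all PPARα sites. Of 20 PPARδ sites, 15 were called in fed livers only (75.0%, 53.1% to 88.8%), against 70.7% of all PPARδ sites. None of the 20 was called in fasted livers only, which allows a share of up to 15.0% from 3 counts (16.1% by the Wilson interval), and over all PPARδ sites this share was 10.6%. Each of these intervals held the share over all sites. Intervals on 20 to 59 sites are wide, however, and do not show that the shares were alike. Without *Rxra*, the share of PPARα sites called in fasted livers only was 29.3%, and without *Ppara* it was 45.9%.

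**Figure D4:**
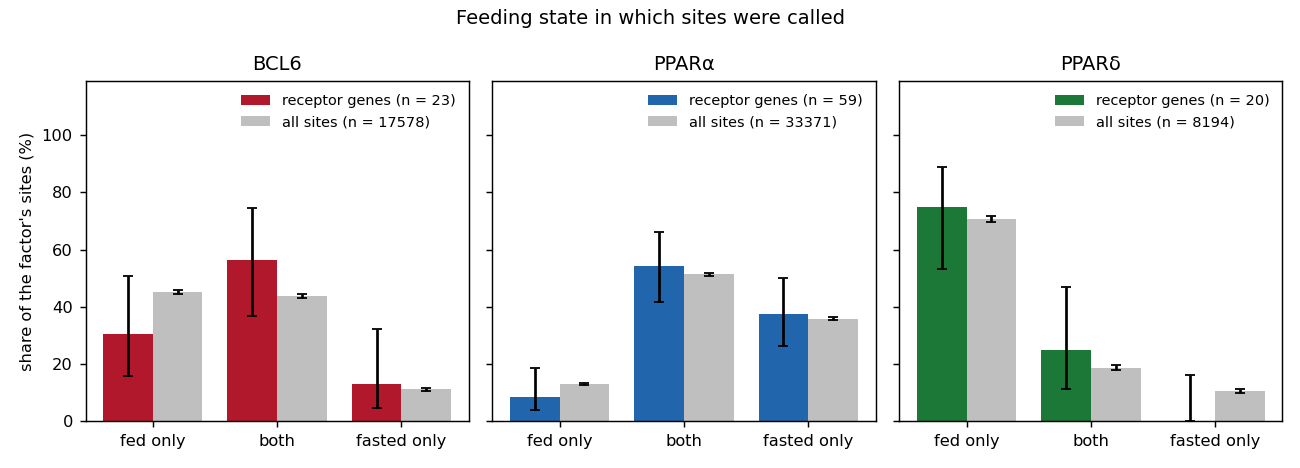
Share in percent (vertical axis) of BCL6, PPARα and PPARδ sites in the fed list alone, in both lists or in the fasted list alone, at the receptor genes (colored) and over all sites (gray); error bars are 95% Wilson intervals. Each colored interval reaches the gray bar beside it, for example 30.4% against 45.3% for BCL6 in fed livers only.

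In the C57BL/6 lists, each interval given here for sharing between factors also held the share over all sites. With 20 to 64 sites the intervals were wide, so they do not show that the shares were alike. PPARα was called at 21 of 23 BCL6 sites (91.3%, 73.2% to 97.6%), against 77.6% of all BCL6 sites. The exceptions were the *Ppara* site at 17.2 kb and the *Nr1h3* intron site. BCL6 was called at 21 of 59 PPARα sites (35.6%, 24.6% to 48.3%), against 40.9% over all. PPARδ was called at 18 of the 59 (30.5%, 20.3% to 43.1%), against 20.9% over all. PPARα was called at 18 of 20 PPARδ sites (90.0%, 69.9% to 97.2%), against 85.0%, and the exceptions were the *Rxra* sites at 33.5 and 69.0 kb. The 3 factors met at 12 of the 64 sites (18.8%, 11.1% to 30.0%), against 11.5% of all sites, with 6 at *Ppara*, 4 at *Rxra* and 2 at *Pparg*. At the 21 sites of BCL6 with PPARα the nearest centers of the factors were a median of 13.0 bp apart, and 20 of them were under 100 bp apart; over all 13640 such sites the median was 14.0 bp. The 2 sites in all 7 lists made up 3.12% of the 64, against 1.60% of all sites.

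PPARα sites called in fasted livers only carried few BCL6 calls, at the receptor genes and over all sites. None of the 22 at the receptor genes had BCL6 in C57BL/6 livers, which allows a share of up to 13.6% from 3 counts (14.9% by the Wilson interval), and over all such sites 13.3% had it. In the Bcl6 fl/fl list 2 of the 22 had BCL6, at *Ppard* (8.3 kb) and in exon 6 of *Pparg* (9.09%, 2.53% to 27.8%), against 13.7% over all. Of the 32 PPARα sites called in both states, 19 had BCL6 (59.4%, 42.3% to 74.5%), against 60.8% over all sites. Of the 22, 18 were in no other list (81.8%, 61.5% to 92.7%), against 74.8% over all, and 10 of the 22 were at *Rxra* and 5 at *Ppara*. In promoters lay 4 of the 22 (18.2%, 7.31% to 38.5%), against 23.8% of all fasted-only PPARα sites: those of *Rxra*, *Nr1h2* and *Nr1h3*, and the *Rxrb* site, whose promoter is that of *Slc39a7*.

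By position, 10 of the 64 sites lay in a promoter (15.6%, 8.71% to 26.4%), against 13.4% of all sites. With curated starts alone 7 did. Relative to the RefSeq Select transcripts, 26 sites were upstream, 36 intronic, 1 exonic and 1 downstream. Of the 10 promoter sites, 4 had BCL6, and these were the pairs at the internal starts of *Ppara* and *Pparg*. They made up 17.4% of the 23 BCL6 sites (6.98% to 37.1%), against 5.19% of all BCL6 sites. The *Ppara* start is a predicted one, and with curated starts alone the *Pparg* pair was left (8.70%, 2.42% to 26.8%), against 3.97%.

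The fed BCL6 calls were partly recovered in Bcl6 fl/fl livers. Of 20 receptor sites with BCL6 in fed C57BL/6 livers, 15 were in the Bcl6 fl/fl list (75.0%, 53.1% to 88.8%), against 69.5% over all sites. Of the 29 Bcl6 fl/fl sites, 17 had BCL6 in fed or fasted C57BL/6 livers (58.6%, 40.7% to 74.5%), against 67.8%. PPARα was called at 27 of the 29 (93.1%, 78.0% to 98.1%). The share over all Bcl6 fl/fl sites was 77.6%, just below that interval. Of 16 sites with BCL6 in fasted C57BL/6 livers, 15 were called in fed livers of either genotype (93.8%, 71.7% to 98.9%), against 89.7% over all, and the exception was the *Rxra* site in intron 9.

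Motif matches were scarce in the 200 bp windows. DR1 was found at 8 of 64 sites (12.5%, 6.47% to 22.8%), against 13.1% of all sites, and DR4 at 4 (6.25%, 2.46% to 15.0%), against 4.72%. The BCL6 element was found at 3 sites (4.69%, 1.61% to 12.9%), against 10.8%, and the forkhead motif at 3 (4.69%), against 7.47%. All 4 DR4 sites, at *Ppara* (3.0 kb upstream and 38.8 kb downstream), *Ppard* (46.7 kb) and *Rxra* (52.1 kb upstream), had BCL6 and PPARα in both states. They were 17.4% of the 23 BCL6 sites (6.98% to 37.1%), against 5.11% of all BCL6 sites, but each had 2 mismatches, and with 1 mismatch fewer DR4 was found at 0 of the 64 sites. Of the 8 DR1 sites, 4 were fasted-only PPARα sites, at *Ppara*, *Ppard*, *Rxra* and *Rxrb*. They were 18.2% of the 22 fasted-only PPARα sites (7.31% to 38.5%), against 14.1% over all. Of the 23 BCL6 sites, 2 held the BCL6 element (8.70%, 2.42% to 26.8%), against 15.3% of all BCL6 sites. A window without a match shows only that these letters were absent from it.

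Peak counts over the 7 lists were compared with those of every other gene by the sum of absolute differences, for the 4 receptor genes with at least 5 peaks. The closest genes to *Ppara*, which had 79 peaks, were *Mtss1* with a sum of 10, *Foxn3* with 11 and *Pcsk5* with 12. For *Rxra*, with 50 peaks, they were *Osbpl1a* with 11, and *Epas1* and *Zfp36l2* with 12 each. *Pparg*, with 26 peaks, was closest to *Dennd4a* with 1, then to *Cpn2* and *Selenof* with 2 each. *Ppard*, with 19 peaks, was closest to *Wdr45b* with 2, then to *Atp8b4* and *Cyp2b10* with 3 each.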

How the data were processed

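ChIP-seq of BCL6, PPARα and PPARδ was performed on mouse livers, and 7 deposited peak lists covering 21 of the 59 samples were used. Reads were mapped by the authors with Bowtie to mm10, and they called peaks with HOMER on pooled replicates and filtered them with DESeq2. The deposited values are positions in bp (chromosome, start and end) with no counts, scores or normalization, so depth is unknown and no test between replicates was possible. Corepressor, histone and knockout libraries were not analysed here.

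Peaks of all lists were joined in a single step by single linkage of centers less than 200 bp apart. A site belonged to a gene if any of its peaks did. Starts were the 56206 mRNA starts of 21774 protein-coding RefSeq genes on GRCm38.p6, the assembly of mm10, predicted models included. Exons and introns are those of the RefSeq Select transcript. Promoters reached 1000 bp upstream and 100 bp downstream of any start. The length searched by the rule for a gene was its body plus all positions nearest to its starts within 100 kb.

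Named were all 8 receptor genes, the 3 genes with the most sites in each comparison list, and the 3 genes with the closest peak counts over the lists; *Fance*, *Col11a2*, *Madd*, *Slc39a7*, *Lncppara*, *Mirlet7c-2* and the receptor genes without a site were named after their values were seen. 1 gene that this rule names is not reported here. The genes and lists were chosen with earlier results of these data known, and no test was run on them. The functions were tested on simulated data. Python 3.11.15, NumPy 2.4.6, SciPy 1.17.1, pysam 0.24.0 and Matplotlib 3.10.9 were used.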

Additional observations from a re-analysis of the deposited data

How the results depend on the processing

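Sites were recounted under 15 alternative settings: other joining distances, another reach, assignment by gene body or by nearest TSS alone, 1 TSS per gene, the Bcl6 fl/fl list for fed BCL6, other motif windows and mismatches, other promoters, and omission of *Ppara* or *Rxra*. The last omissions and the curated promoters were chosen after seeing the data. Of 89 values other than sites per gene, 82 stayed within 1.5 times the count or within the interval of the share reported. Of 72 counts of sites per gene, 66 stayed within 1.5 times the count. With gene bodies alone, 38 sites remained, of which 33 had PPARα and 9 PPARδ, because upstream sites are then left out. *Ppara* and *Rxra* then had 9 each, *Ppard* 8, *Pparg* 7 and *Nr1h2* 0. With 1 mismatch fewer, the BCL6 element was found at 1 site, DR1 at 3 and DR4 at 0, and with windows of 100 bp DR1 was found at 5. By nearest TSS alone, *Ppard* had 3 sites and *Nr1h3* and *Rxrb* 1 each. With the Bcl6 fl/fl list, 48.4% of BCL6 sites were called in fed livers only, against 30.4%. No paired analysis was possible because each list pools its replicates, and for the same reason no replicate could be left out. The unknown depth of the libraries limits every statement on a missing call.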
